A study of Oryzias latipes with 8 samples.

Results

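The transcripts of wdr12 and bop1, which encode subunits of the PeBoW complex of ribosome assembly, were followed across 3 sorted cell populations of the optic tectum of medaka (Oryzias latipes). Both genes were found by their associated gene name in the authors' sheets of changed genes and joined to the count tables by Ensembl medaka identifier (wdr12, ENSORLG00000003110, and bop1, ENSORLG00000001674). They are 2 of 16957 genes with counts in all 8 libraries. The third subunit, pescadillo, carried the symbol pes in the sheets (ENSORLG00000007881) and is described beside them.

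PeBoW is a nucleolar complex of Pes1, Bop1 and Wdr12. It is needed for the processing of ribosomal RNA precursors and for the maturation of the large ribosomal subunit, and its yeast counterpart is the complex of Nop7, Erb1 and Ytm1. In yeast, Ytm1 is pulled out of the preribosome by the AAA-ATPase Rea1 together with Erb1, a remodelling step that lets assembly go on.

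All fish were 1 month old, and all cells came from dissociated tecta, the visual centre of the midbrain, separated on a cytometer by green fluorescent protein (GFP). In the Wdr12:GFP line the promoter of wdr12 drives GFP, which marks the neuroepithelial cells. The GFP-positive sort of that line gave 3 libraries. Its GFP-negative sort gave 2 libraries and is a mixture, which the design text lists as amplifying progenitors, neurons and glia. The GFP-positive sort of the ebf3:GFP line gave 3 libraries and holds post-mitotic progenitors together with neurons. No wild-type fish without a transgene enter the comparisons, and the labels do not name the promoter fragments used. Because the reporter that chose the cells is driven by wdr12's own promoter, the wdr12 transcript in the sorts of that line is a check of the sort and not evidence independent of it. The same limit holds where the GFP-positive sort of that line is compared with the ebf3 sort. The labels do not say whether replicates came from separate pools of fish, so p-values measure the spread between these libraries, which may be technical.

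Total counts over the 16957 genes ran from 3497101 to 11580629 per library. Of 15640 genes tested with edgeR's quasi-likelihood test, 19.8% were called at an adjusted p under 0.05 in either direction between the sorts of the Wdr12:GFP line, 23.5% between the GFP-positive sorts of both lines, and 5.12% between the control sorts. The comparisons share libraries. The cell markers followed the labels in part. All 19 proliferation genes were called higher in wdr12 GFP-positive cells than in each control. Among tested genes with a symbol in the authors' sheets, 29.9% were called higher against wdr12 GFP-negative cells and 37.9% against ebf3 GFP-positive cells. The 16 neuronal markers summed to 1499 to 2510 CPM (counts after scaling for library size) in the wdr12 GFP-positive libraries. Both controls gave higher sums, of 3519 and 4281 CPM for wdr12 GFP-negative libraries and 3898 to 5306 CPM for ebf3 GFP-positive libraries. These control sums overlapped and do not rank the controls. edgeR called 15 of the 16 lower in wdr12 GFP-positive than in wdr12 GFP-negative cells and 0 higher, beside 1539 of the 15640 tested genes called lower. The median log2 fold change was -2.48. Against ebf3 GFP-positive cells 11 were called lower and 0 higher, beside 1688 genes lower, with a median of -1.88. The geometric mean of the 16 was 15, 20 and 45.6 CPM in wdr12 GFP-positive replicates 1 to 3, and 82 to 165 CPM in the control libraries. Gene by gene, 13 of the 16 had a positive log2 fold change of wdr12 GFP-negative over ebf3 GFP-positive cells. The median was 0.5, beside 0.19 over tested genes with a symbol. There edgeR called 3 of the 16 higher and 1 lower, and 12 did not pass, beside 494 higher and 307 lower of the 15640 tested genes. The 16 were matched by symbols, which only genes listed as changed carry. For genes with a symbol, shares of lower calls and of calls between the controls were not counted. The 8 erythrocyte genes summed to 26800 and 135800 CPM in the wdr12 GFP-negative libraries and to 133.4 to 873.2 in the other libraries, so this sort also holds red cell RNA that the design text does not list.

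The level of wdr12 was about 3 times higher in wdr12 GFP-positive cells than in either control, and the control levels were close to each other. The levels are CPM with library sizes adjusted by the trimmed mean of M-values (TMM). wdr12 stood at 99.27, 60.56 and 50.57 CPM in replicates 1, 2 and 3 of the wdr12 GFP-positive sort. It stood at 25.67 and 21.47 CPM in the wdr12 GFP-negative libraries. In the ebf3 GFP-positive libraries it stood at 24.8, 26.62 and 18.48 CPM. Every wdr12 GFP-positive library thus lay above every control library, and the controls overlapped each other. Taken 1 control at a time, such separation held for 25.4% of tested genes against wdr12 GFP-negative cells and 19.9% against ebf3 GFP-positive cells. The group means were 70.13 ± 25.7 (SD, n = 3) in wdr12 GFP-positive cells, 23.57 ± 2.97 (SD, n = 2) in wdr12 GFP-negative cells and 23.3 ± 4.27 (SD, n = 3) in ebf3 GFP-positive cells. Replicate 1 was the highest of the wdr12 GFP-positive group, whose coefficient of variation was 36.7%.

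bop1, the scaffold subunit, was highest in the same cells but followed another order in the controls. Its level was 197.3, 123.5 and 131.1 CPM in replicates 1, 2 and 3 of wdr12 GFP-positive cells. It was 72.23 and 60.45 CPM in wdr12 GFP-negative cells. The ebf3 GFP-positive libraries gave 101.7, 105.3 and 86.89 CPM. These lay between the other groups, and no pair of groups overlapped. Taken 1 pair at a time, the same separation held for 25.4% of tested genes between the sorts of the Wdr12:GFP line. It held for 19.9% between the GFP-positive sorts and for 19.5% between the controls. The means were 150.7 ± 40.6 (SD, n = 3), 66.34 ± 8.33 (SD, n = 2) and 97.95 ± 9.74 (SD, n = 3) CPM for the wdr12 GFP-positive, wdr12 GFP-negative and ebf3 GFP-positive sorts.

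pes, the pescadillo subunit, followed wdr12. Its level was 187.5, 160.8 and 115.9 CPM in wdr12 GFP-positive cells, replicates 1 to 3. It was 65.71 and 53.92 CPM in wdr12 GFP-negative cells. The ebf3 GFP-positive libraries gave 59.53, 61.92 and 62.09 CPM. As for wdr12, all 3 wdr12 GFP-positive libraries were above all control libraries, and the control sorts overlapped. The means were 154.7 ± 36.2 (SD, n = 3), 59.81 ± 8.33 (SD, n = 2) and 61.18 ± 1.43 (SD, n = 3) CPM in the same order of groups. In these bulk samples, fewer cells of a type and less RNA per cell cannot be told apart.

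**Figure D1:**
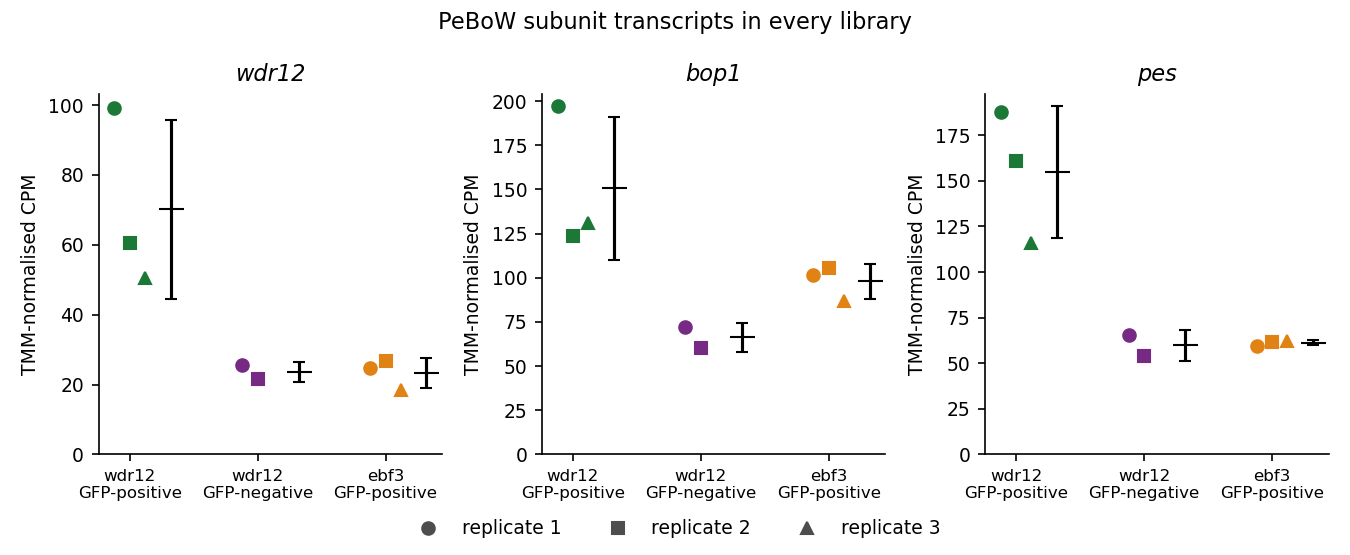
TMM-normalised CPM of wdr12, bop1 and pes in each of the 8 libraries (points, shaped by replicate), with the group mean and 1 SD beside them. The wdr12 GFP-positive libraries lie above all control libraries for each gene, and ebf3 GFP-positive cells lie above wdr12 GFP-negative cells for bop1 alone, at 86.89 to 105.3 against 60.45 and 72.23 CPM.

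The comparison of the sorts of the Wdr12:GFP line asks which genes set neuroepithelial cells apart from the other tectal cells. Both wdr12 and bop1 were called higher, as were 9.92% of all tested genes and 29.9% of those with a symbol in the authors' sheets. Both genes were found through those sheets, which list genes changed in these same counts. Their calls are therefore not independent of how they were found. wdr12 was higher by a log2 fold change of 1.57 ± 0.38 (SE), a 2.98-fold difference with a 95% interval of 0.77 to 2.38 on the log2 scale (edgeR, adjusted p = 0.00786). bop1 was higher by 1.18 ± 0.32 (SE), a 2.27-fold difference with a 95% interval of 0.51 to 1.85 (edgeR, adjusted p = 0.0144). pes was higher by 1.37 ± 0.31 (SE; edgeR, adjusted p = 0.00548). These differences were far from the largest: 10.5% of tested genes had a larger log2 fold change than wdr12 and 16.8% a larger one than bop1. Groups without overlap in this direction, as seen for both, were found for 25.4% of tested genes. Neither call held with a single wdr12 GFP-negative library: the adjusted p of wdr12 was 0.0626 without replicate 1 and 0.109 without replicate 2, and that of bop1 was 0.0866 and 0.171. bop1 also lost its call with scaling by library totals alone (log2 fold change 0.75, edgeR adjusted p = 0.0763).

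The comparison with ebf3 GFP-positive cells asks what separates neuroepithelial cells from cells that have stopped dividing. Here wdr12 was called higher and bop1 did not pass. The wdr12 call is again a check of the sort, since wdr12's promoter chose the wdr12 GFP-positive cells. Of all tested genes 12.7% were called higher, and of those with a symbol in the authors' sheets 37.9%. The log2 fold change of wdr12 was 1.59 ± 0.32 (SE), a 3.01-fold difference with a 95% interval of 0.90 to 2.28 (edgeR, adjusted p = 0.002). That of bop1 was 0.62 ± 0.27 (SE), 1.54-fold, with a 95% interval of 0.04 to 1.20 (edgeR, unadjusted p = 0.0367, adjusted p = 0.121). pes was called higher, by 1.34 ± 0.27 (SE; edgeR, adjusted p = 0.00176). The bop1 libraries still did not overlap, which held in the same direction for 19.9% of tested genes, and 30.7% of genes had a larger log2 fold change than bop1. Without replicate 1 of wdr12 GFP-positive cells the bop1 difference was 0.35 (edgeR, adjusted p = 0.357).

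Between the control sorts neither gene passed the test, where 5.12% of tested genes did. The log2 fold change of wdr12 from ebf3 GFP-positive to wdr12 GFP-negative cells was 0.01 ± 0.36 (SE), with a 95% interval of -0.76 to 0.78 (edgeR, unadjusted p = 0.969, adjusted p = 0.993). For pes the interval was -0.67 to 0.60 (edgeR, adjusted p = 0.977). Equal levels were not shown, since the wdr12 interval holds differences of up to 0.78 on the log2 scale. For bop1 the value was -0.56 ± 0.31 (SE), lower in wdr12 GFP-negative cells, with a 95% interval of -1.22 to 0.09 (edgeR, unadjusted p = 0.0881, adjusted p = 0.364). Its wdr12 GFP-negative libraries lay below all ebf3 GFP-positive libraries, as they did for 19.5% of tested genes. By DESeq2 neither gene passed either. The test of this comparison is also the test of whether bop1 differed from each control by unequal amounts, and it did not pass.

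**Figure D2:**
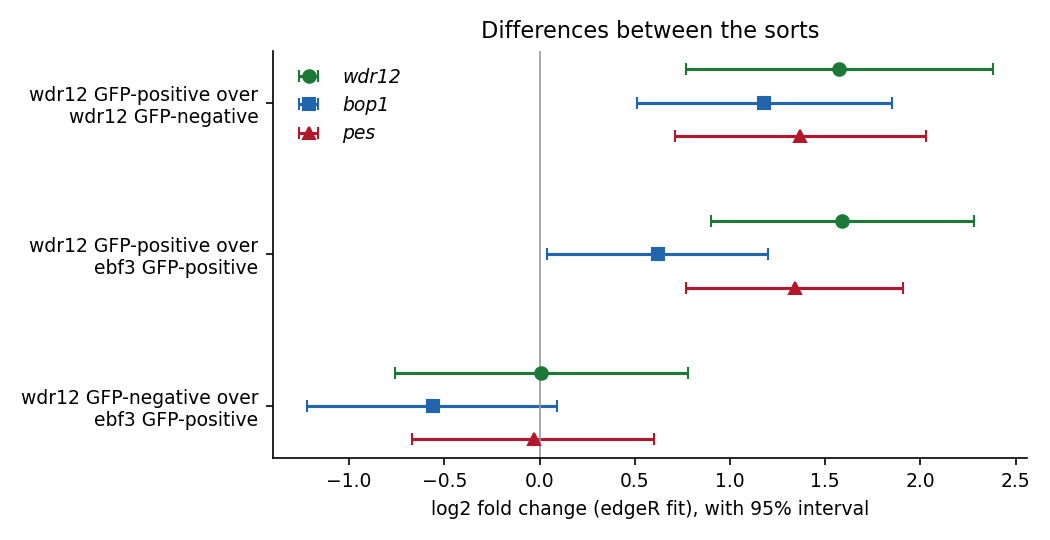
Log2 fold changes of wdr12, bop1 and pes in the 3 comparisons of sorts, from the edgeR fit, with 95% intervals as bars. The intervals of wdr12 and pes lie above 0 against both controls and span 0 between the controls, and that of bop1 against ebf3 GFP-positive cells reaches down to 0.04.

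In the authors' deposited table of each comparison, computed with DESeq per the submitters' processing notes, the same calls were found. Those tables rest on the same counts, and the genes were found through the authors' sheets of changed genes. The match is therefore not separate evidence. For wdr12 the authors' deposited table gives a log2 fold change of 1.51 against wdr12 GFP-negative cells (adjusted p = 0.00545) and 1.59 against ebf3 GFP-positive cells (adjusted p = 0.000318). For bop1 the authors' deposited table gives 1.11 (adjusted p = 0.0327) and 0.62 (adjusted p = 0.199). For pes the authors' deposited table gives 1.31 (adjusted p = 0.0101) and 1.34 (adjusted p = 0.000528). In the sheets, wdr12 and pes are accordingly listed as higher than each control and than both, and bop1 only as higher than wdr12 GFP-negative cells. A deposited sheet of shared genes with Drosophila sets places WDR12 under a set named for neuroepithelium and WDR12 and PES1 under one named for neuroblasts. In the deposited network sheet WDR12, BOP1 and PES1 stand in the same network, number 18, of 140 molecules.

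Whether wdr12 and bop1 changed by unequal amounts was read from the ratio of their counts inside each library, which needs no normalisation between libraries. Only changes of this ratio are informative, since transcript lengths were not used. The counts of wdr12 and bop1 were 916 and 1821, 525 and 1071, and 393 and 1019 in wdr12 GFP-positive replicates 1, 2 and 3. The ratio of wdr12 to bop1 was therefore 0.503, 0.490 and 0.386 in these libraries. It was 0.355 in both wdr12 GFP-negative libraries, from 118 and 332 and from 125 and 352 counts. The ebf3 GFP-positive libraries gave 0.244, 0.253 and 0.213, from 180 and 738, 199 and 787, and 111 and 522 counts. The sorts thus stood in the order wdr12 GFP-positive, wdr12 GFP-negative, ebf3 GFP-positive, with no overlap. How often ratios of other pairs of genes separate the sorts in this way was not counted.

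The mean log2 ratio of wdr12 GFP-positive cells exceeded that of ebf3 GFP-positive cells by 0.95 (exact permutation test over libraries, two-sided, p = 0.1, adjusted over 3 comparisons 0.15). wdr12 GFP-negative cells also exceeded ebf3 GFP-positive cells, by 0.59 (exact permutation test, two-sided, p = 0.1, adjusted 0.15). Between the sorts of the Wdr12:GFP line it differed by 0.36 (exact permutation test, two-sided, p = 0.2, adjusted 0.2). With groups of 2 and 3 the smallest two-sided p is 0.1 in each comparison, so the test cannot reach 0.05 here. The pes to bop1 ratio was likewise lower in ebf3 GFP-positive cells, at 0.585, 0.588 and 0.715, than in the positive sort of the Wdr12:GFP line, at 0.950, 1.30 and 0.884, and its negative sort, at 0.910 and 0.892. The ratio of wdr12 to pes overlapped between all groups: it was 0.529, 0.377 and 0.436 in wdr12 GFP-positive cells, 0.391 and 0.398 in the GFP-negative cells of that line, and 0.417, 0.430 and 0.298 in ebf3 GFP-positive cells. As a description, bop1 counts were high relative to those of both partners in the ebf3 GFP-positive libraries.

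**Figure D3:**
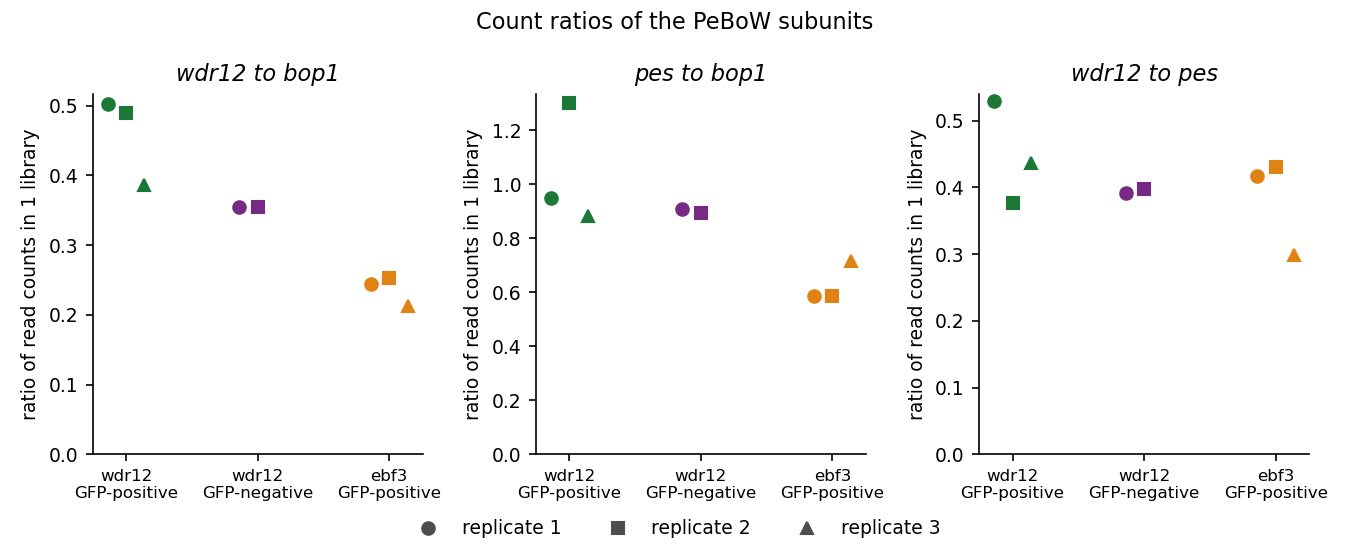
Ratios of read counts within each library for wdr12 to bop1, pes to bop1 and wdr12 to pes, with 1 point per library shaped by replicate and axes from 0. The wdr12 to bop1 ratio falls from 0.386 to 0.503 in wdr12 GFP-positive cells to 0.213 to 0.253 in ebf3 GFP-positive cells, and the wdr12 to pes ratio overlaps between the sorts.

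Across the 8 libraries the pattern of wdr12 was closer to that of pes than to that of bop1. Pearson's r of log2(CPM + 1) was 0.971 between wdr12 and pes, 0.879 between wdr12 and bop1 and 0.850 between bop1 and pes. These values are descriptions over 8 libraries that share the 3 groups and the high wdr12 GFP-positive replicate 1. Among 3358 other genes that carried a symbol and averaged at least 100 normalised counts, pes ranked 32 in likeness to wdr12 and bop1 ranked 459. The 5 genes closest to wdr12 were bcap29, an endoplasmic reticulum protein (r = 0.986), cbx3a, a heterochromatin protein (0.986), CENPT, of the inner kinetochore (0.985), amotl2a, an angiomotin-like protein (0.984), and lgalsla, a galectin-like protein (0.984). Their log2 fold changes were larger than those of wdr12: cbx3a, for example, was higher than in wdr12 GFP-negative cells by 3.09 ± 0.40 (SE) and than in ebf3 GFP-positive cells by 2.95 ± 0.34 (SE) on the log2 scale.

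In each of the 5 genes closest to bop1, the ebf3 GFP-positive libraries lay between the other groups without overlap, as for bop1. These 5 genes were chosen for their likeness to bop1 over the same libraries, so the shared order is not separate evidence. They were snrpf, a core protein of spliceosomal snRNPs (r = 0.988), polr2h, a subunit common to the nuclear RNA polymerases (0.985), orc4, of the origin recognition complex (0.985), banf1, a chromatin-binding protein of the nuclear envelope (0.984), and wdr43, a factor of small-subunit assembly (0.982). snrpf stood at 487.2, 206.1 and 278.4 CPM in wdr12 GFP-positive cells, at 90.51 and 78.48 in wdr12 GFP-negative cells and at 197.7, 198.6 and 131.3 in ebf3 GFP-positive cells. wdr43 had log2 fold changes close to those of bop1, 1.15 against wdr12 GFP-negative cells (edgeR, adjusted p = 0.0156) and 0.59 against ebf3 GFP-positive cells (edgeR, adjusted p = 0.137).

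PeBoW acts with many other factors on the precursor of the large subunit. Of a list of such factors, 22 besides wdr12 and bop1 could be matched and tested, pes among them. Symbols exist only for genes that the authors listed as changed in these libraries, so the counts of the list are not independent evidence of its direction. In both comparisons of wdr12 GFP-positive cells, edgeR and DESeq2 called 0 of the 22 lower, and edgeR also placed 0 lower at an unadjusted p under 0.05. Against wdr12 GFP-negative cells 19 of 22 were called higher and 3 did not pass, where 29.9% of the 4658 tested genes with a symbol were called higher. The median log2 fold change of the list was 1.38, beside 0.05 over all tested genes and 0.31 over those with a symbol, so bop1 lay below the median of the list and wdr12 above it. Against ebf3 GFP-positive cells 16 were called higher and 6 did not pass, where 37.9% of genes with a symbol were called higher, and the median was 1.07 beside 0.01 and 0.28. Between the controls edgeR called 0 of 22 in either direction, beside 5.12% of tested genes. At an unadjusted p under 0.05, 1 was higher and 5 lower, and the share of all genes at that p was not counted. DESeq2 called 0 of the 22 higher and 2 lower, beside 794 higher and 706 lower of the 15640 tested genes. Fewer of the 22 were called higher when either wdr12 GFP-negative library was left out, and fewer of all tested genes were too. Against ebf3 GFP-positive cells 10 of the 22 were called higher without wdr12 GFP-positive replicate 1. Of all 15640 tested genes 1803 were, from 1983 with every library. Without ebf3 GFP-positive replicates 2 and 3 the list gave 7 and 9, beside 1537 and 1994 of all tested genes.

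Like bop1, some large-subunit factors passed against wdr12 GFP-negative cells and not against ebf3 GFP-positive cells. nle1 (Notchless), whose yeast homologue Rsa4 is removed by the same ATPase as Ytm1, was higher than in wdr12 GFP-negative cells by 1.56 ± 0.38 on the log2 scale (SE; edgeR, adjusted p = 0.00814). Its difference from ebf3 GFP-positive cells was 0.58 ± 0.31 (SE; edgeR, adjusted p = 0.22). ddx27, an RNA helicase that binds PeBoW in human cells, was higher by 1.49 ± 0.32 (SE; edgeR, adjusted p = 0.00423) and differed by 0.52 ± 0.27 from ebf3 GFP-positive cells (SE; edgeR, adjusted p = 0.2). rpf2, which helps to load the 5S particle in yeast, was higher by 1.25 ± 0.30 (SE; edgeR, adjusted p = 0.00833) and differed by 0.25 ± 0.26 (SE; edgeR, adjusted p = 0.576). The GTPase gnl2, mrto4 and noc2l showed the same pair of outcomes. For none of these did the difference between the controls pass: it was -0.98 for nle1 (edgeR, adjusted p = 0.154) and -0.97 for ddx27 (edgeR, adjusted p = 0.0971), and the adjusted p of rpf2 was 0.0687.

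Other factors were, like wdr12 and pes, called higher against each control, in comparisons that share the wdr12 GFP-positive libraries. ebna1bp2, whose yeast homologue is the assembly factor Ebp2, stood at 315.6, 189 and 167.8 CPM in wdr12 GFP-positive cells, at 54.39 and 52.03 in wdr12 GFP-negative cells and at 91.64, 83.06 and 85.56 in ebf3 GFP-positive cells. It had the largest log2 fold change of the list against wdr12 GFP-negative cells, 2.07 ± 0.34 (SE; edgeR, adjusted p = 0.000635). ddx21, a nucleolar RNA helicase, exceeded its level in ebf3 GFP-positive cells by 1.38 ± 0.26 on the log2 scale (SE; edgeR, adjusted p = 0.00121) and that in wdr12 GFP-negative cells by 1.07 ± 0.30 (SE; edgeR, adjusted p = 0.0197). ppan, nop2 (an rRNA methyltransferase), RSL1D1 and gnl3 (nucleostemin) were also called higher than both controls. rrs1, the partner of rpf2, passed against ebf3 GFP-positive cells, at 1.11 ± 0.33 (SE; edgeR, adjusted p = 0.0228) and did not pass against wdr12 GFP-negative cells, at 1.00 ± 0.38 (SE; edgeR, adjusted p = 0.0805). urb2 and CCDC86 (1 of 2) had the same pair of outcomes. Against wdr12 GFP-negative cells each stood at 0.41 (edgeR, adjusted p = 0.635 and 0.609). Between the controls they stood at 0.92 and 1.22, opposite in sign to bop1, and did not pass (edgeR, adjusted p = 0.303 and 0.128).

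**Figure D4:**
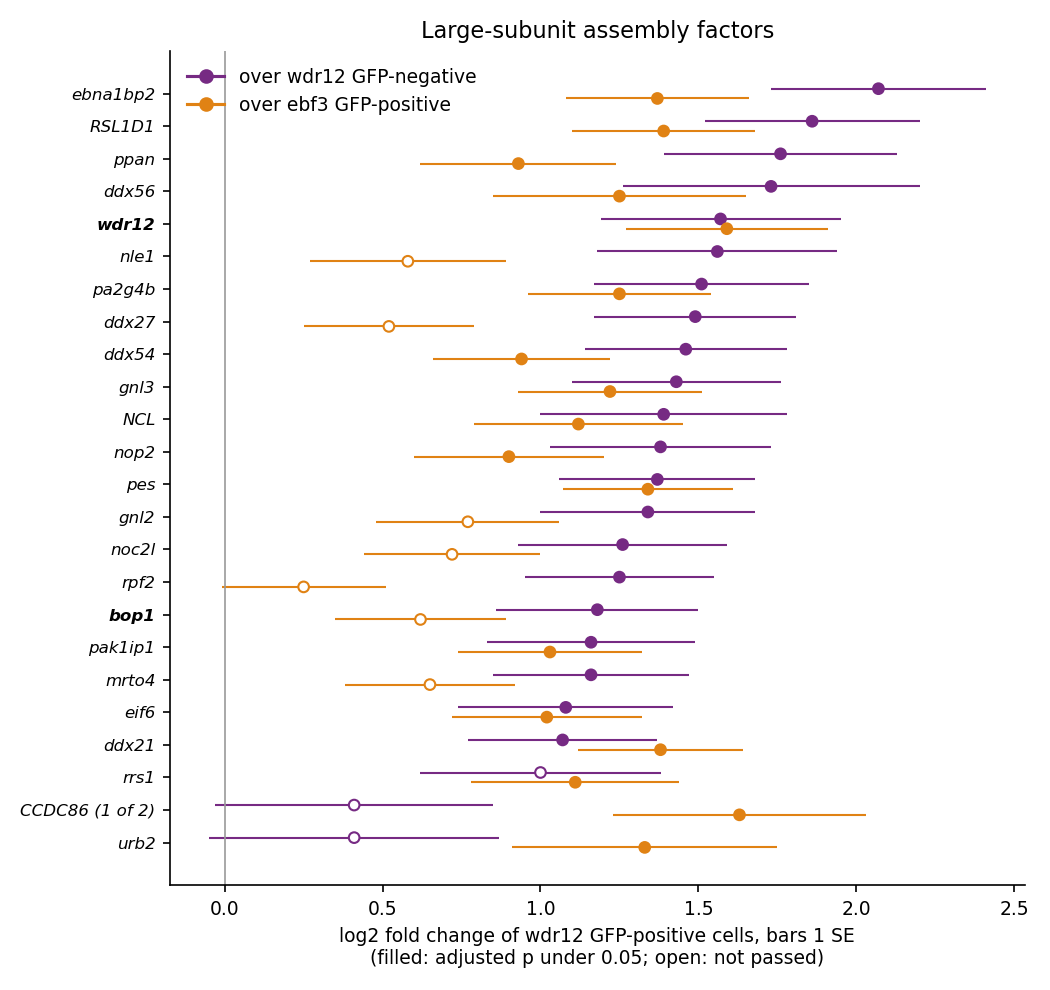
Log2 fold changes with 1 SE of wdr12 GFP-positive cells over wdr12 GFP-negative cells and over ebf3 GFP-positive cells for wdr12, bop1 and 22 other large-subunit assembly factors, ordered by the former. Filled points passed an adjusted p under 0.05: 19 of the 22 in the former comparison and 16 in the latter.

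Genes of the other branches of ribosome synthesis were counted in the same way. Of 22 small-subunit processome genes, 20 were called higher against wdr12 GFP-negative cells and 2 did not pass, beside 29.9% called higher among tested genes with a symbol. The median log2 fold change of the list was 1.38 there, beside 0.05 over all tested genes and 0.31 over those with a symbol. Against ebf3 GFP-positive cells 12 were called higher and 10 did not pass, beside 37.9% of genes with a symbol, and the median was 0.93 beside 0.01 and 0.28. In both comparisons 0 were lower by edgeR, at an unadjusted p under 0.05 included, or by DESeq2. Among them utp15 was higher than in wdr12 GFP-negative cells by 2.33 ± 0.37 (SE; edgeR, adjusted p = 0.000502). imp4, a component of the U3 particle, was higher by 1.85 ± 0.34 (SE; edgeR, adjusted p = 0.00127) and, like bop1, did not pass against ebf3 GFP-positive cells, at 0.62 ± 0.28 (SE; edgeR, adjusted p = 0.137). utp15 and imp4 were also lower in wdr12 GFP-negative cells than in the ebf3 sort, by a log2 fold change of -1.44 (edgeR, adjusted p = 0.03) and -1.24 (edgeR, adjusted p = 0.0408). Of 3 RNA polymerase I genes, 2 were called higher and 1 did not pass against each control. The shares of genes with a symbol called higher were again 29.9% against wdr12 GFP-negative cells and 37.9% against ebf3 GFP-positive cells. polr1a, which encodes the catalytic large subunit of RNA polymerase I, was higher in wdr12 GFP-positive cells than in both controls, by 1.74 ± 0.35 (SE; edgeR, adjusted p = 0.00249) and 1.59 ± 0.30 (SE; edgeR, adjusted p = 0.00106). taf1a did not pass against ebf3 GFP-positive cells (edgeR, adjusted p = 0.137), nor polr1b against wdr12 GFP-negative cells (edgeR, adjusted p = 0.0831).

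In the order of genes of the RefSeq annotation (assembly ASM223467v1), wdr12 lies between ica1l and nop58, and bop1 between wdyhv1 and hsf1. Of these neighbours nop58 alone carried a symbol in the authors' sheets. FAM117B, a gene near wdr12 in that order, also carried one. Both nop58 and FAM117B were named after their symbols and values were seen. nop58, a core protein of box C/D small nucleolar particles, stood at 248.1, 167 and 127.6 CPM in wdr12 GFP-positive cells, at 25.24 and 47.05 in wdr12 GFP-negative cells and at 54.71, 56.44 and 58.76 in ebf3 GFP-positive cells. nop58 was higher than in these controls by 2.32 ± 0.38 (SE; edgeR, adjusted p = 0.000584) and 1.68 ± 0.32 (SE; edgeR, adjusted p = 0.0011), a larger log2 fold change than that of wdr12 in each. FAM117B had a log2 fold change of -0.45 against wdr12 GFP-negative cells (edgeR, adjusted p = 0.55), which did not pass, and of -1.44 against ebf3 GFP-positive cells (edgeR, adjusted p = 0.0107), where it was called lower.

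Myc proteins are known activators of ribosome assembly genes. Of 4 genes of a list of myc genes and their partners, 3 were called higher against wdr12 GFP-negative cells and 1 did not pass. Among tested genes with a symbol, 29.9% were called higher there. Against ebf3 GFP-positive cells 2 of the 4 were called higher, 1 was called lower and 1 did not pass, beside 37.9% called higher. mycb stood at 56.68, 84.9 and 77.33 CPM in wdr12 GFP-positive cells, at 10.44 and 9.617 in wdr12 GFP-negative cells and at 6.477, 5.216 and 12.98 in ebf3 GFP-positive cells. Like wdr12 it was higher than in both controls, by 2.86 ± 0.45 (SE; edgeR, adjusted p = 0.000423) and 3.16 ± 0.38 (SE; edgeR, adjusted p = 3.92e-05). mycn was higher by 2.84 ± 0.53 (SE; edgeR, adjusted p = 0.0015) and 2.60 ± 0.44 (SE; edgeR, adjusted p = 0.000479). mxd3, a Max-binding antagonist of Myc, was higher than in wdr12 GFP-negative cells by 2.60 (edgeR, adjusted p = 0.00106) and did not pass against ebf3 GFP-positive cells, at 0.64 (edgeR, adjusted p = 0.249). MXI1 (1 of 2), of the same family, did not pass against wdr12 GFP-negative cells, at 0.46 (edgeR, adjusted p = 0.475), and was lower than in ebf3 GFP-positive cells, with a log2 fold change of -1.33 (edgeR, adjusted p = 0.00749). Unlike wdr12 and bop1, whose highest library was replicate 1, both myc genes were highest in replicate 2.

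Several values moved together with wdr12 and bop1, and their part in the result was not tested. Replicate 1 of wdr12 GFP-positive cells was the highest of its group for wdr12 and bop1, for 21 of 22 other large-subunit factors, pes among them, and for 18 of 19 proliferation genes, against 34.5% of all tested genes. The summed level of the proliferation genes was 11670, 6926 and 5387 CPM in wdr12 GFP-positive replicates 1, 2 and 3, where wdr12 was also highest in replicate 1 and lowest in replicate 3. bop1 was instead lowest in replicate 2, at 123.5 CPM against 131.1 in replicate 3. The proliferation sum was 400.3 and 553.8 CPM in the wdr12 GFP-negative libraries and 623.1, 651.3 and 804.5 CPM in the ebf3 GFP-positive libraries. The controls thus stood in the same order as for bop1, although the design text lists amplifying progenitors in the lower sort. Between the controls edgeR called 0 of the 19 genes, beside 5.12% of tested genes. DESeq2 called 3 of the 19 lower there, beside 706 of the 15640 tested genes. The median log2 fold change there was -0.5. The median log2 fold change of the proliferation genes was 4.32 against wdr12 GFP-negative cells and 3.52 against ebf3 GFP-positive cells, well above the values of wdr12 and bop1. Globin transcripts took 4.27% and 15.7% of the counts of the wdr12 GFP-negative libraries and 0.0115% to 0.117% of those of the other libraries. With the globin genes taken out, the log2 fold change against wdr12 GFP-negative cells was 1.58 for wdr12 and 1.19 for bop1, close to the values with them.

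Markers of other cell types also differed between the sorts. The 9 microglia and leukocyte genes summed to 888.8 to 1616 CPM in wdr12 GFP-positive cells, 954.7 and 1033 in wdr12 GFP-negative cells and 93.98 to 279 in ebf3 GFP-positive cells, and 9 of 9 were called higher in wdr12 GFP-positive cells against the ebf3 sort, where 37.9% of genes with a symbol were. For 8 radial glia genes the sums were 1614 to 3992, 1857 to 2437 and 337.3 to 525.2 CPM in the same order, and against ebf3 GFP-positive cells 6 of 8 were called higher and 1 lower, beside the same 37.9%. Oligodendrocyte genes summed to 810.7 to 1543, 3443 to 4804 and 209.3 to 920.7 CPM in the same order. Against wdr12 GFP-negative cells edgeR called 1 of 8 higher and 2 lower, beside 29.9% of genes with a symbol called higher. DESeq2 called 1 higher and 0 lower there. Against the ebf3 sort edgeR called 6 of 8 higher and DESeq2 called 5, beside 37.9% of genes with a symbol by edgeR. The 5 endothelial and mural genes summed to 332.2 to 473.5 CPM in wdr12 GFP-positive cells, 114.2 and 115.7 in wdr12 GFP-negative cells and 127.9 to 136 in ebf3 GFP-positive cells. Among the 5, edgeR called 2 higher and 1 lower against wdr12 GFP-negative cells, beside 29.9% of genes with a symbol called higher, and 4 higher and 1 lower against ebf3 GFP-positive cells, beside 37.9%. Within the wdr12 GFP-positive group, replicate 1, the highest for wdr12, was the lowest of the 3 for the microglia, oligodendrocyte and erythrocyte sums. It was the highest for the endothelial sum, and for the radial glia sum it lay between the others, at 1954 CPM. The part of these lists in the result was not tested. At most 2 microglia genes and 1 erythrocyte gene were at 0 in any library.

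**Figure D5:**
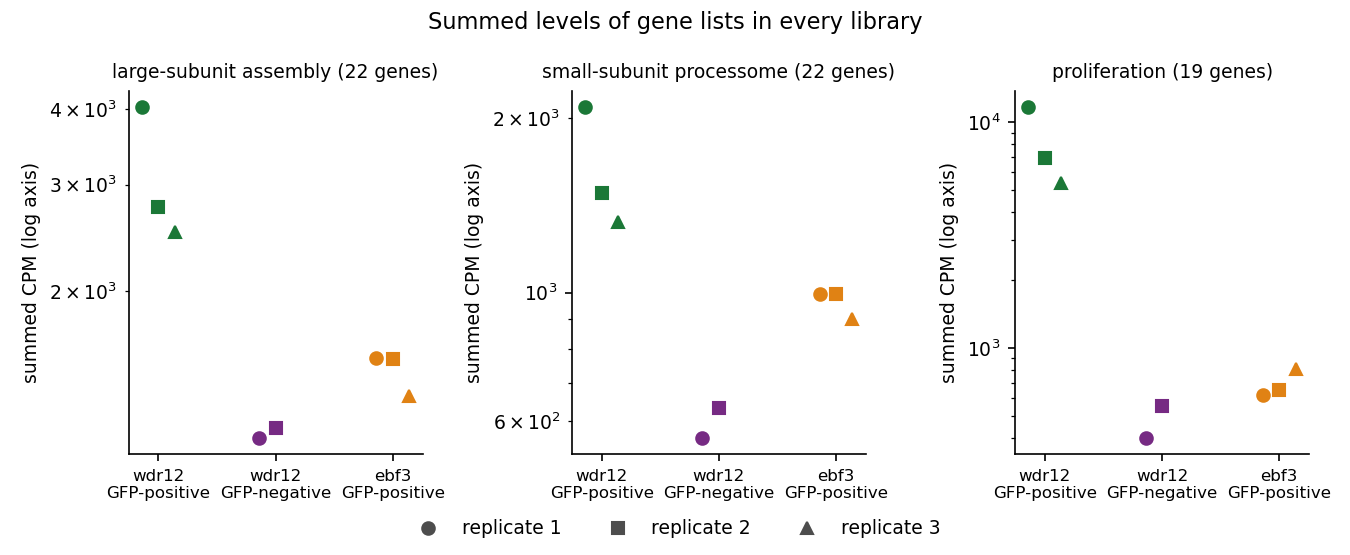
Summed CPM on a log axis of the large-subunit assembly list (22 genes without wdr12 and bop1), the small-subunit processome list (22 genes) and the proliferation list (19 genes) in each library, shaped by replicate. Replicate 1 is the highest wdr12 GFP-positive library in each panel, and the proliferation sums of 5387 to 11670 CPM stand farthest from the controls.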

How the data were processed

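Per the labels' protocols, RNA of sorted tectal cells was made into libraries from 4 ng of total RNA and read from a single end over 50 bases. Per the submitters' processing notes, CASAVA 1.8.2, FastQC 0.10.1, TopHat2 and DESeq were used; for the counter, its strand setting, the genome build and the annotation, nothing is given in the sources used here. Each deposited table lists the authors' raw count of reads for every gene in every library, as whole numbers that were not normalised, per the file headers. The authors' deposited tables also hold a log2 fold change, a p-value and its adjusted form per comparison, and gene symbols only for genes listed as changed.

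The 3 count tables hold 17142 genes. 16957 had counts in all 8 libraries, and the 131234 cells in more than 1 table were equal. No library was a copy of another. Counts of all groups were fitted together with edgeR 4.0.16 (R 4.3.3), with TMM factors, filterByExpr (15640 genes kept) and the quasi-likelihood F test, two-sided, adjusted by Benjamini-Hochberg over all genes tested. The biological coefficient of variation common to all genes was 0.514. The SE is the log2 fold change over the square root of F, and 95% intervals use it with the degrees of freedom of the fit. Higher depth gives smaller counting error. Counting error and the further spread between libraries were not separated gene by gene. Ratios were tested by exact permutation. DESeq2 1.42.0 was an alternative. Other steps used Python 3.11.15, numpy 2.4.6, pandas 2.3.3 and matplotlib 3.10.9. The fit was tested on simulated data.

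wdr12, bop1 and the gene lists were chosen with earlier results of these data known. Genes named are the subunits, factors that act beside PeBoW, up to 4 genes with the smallest adjusted p per ribosome list and the 5 closest in pattern to wdr12 and to bop1. The myc and further large-subunit genes come from fixed lists and were named after their values were seen, as were nop58 and FAM117B. A gene with the symbol nog2, which is noggin here, was left out of the large-subunit list. The order of neighbouring genes was read from the RefSeq annotation of assembly ASM223467v1. Sequences are not used here, and no coordinates are given.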

Additional observations from a re-analysis of the deposited data

How the results depend on the processing

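wdr12 kept its direction and its call against ebf3 GFP-positive cells in every setting tried, with log2 fold changes from 1.23 to 1.76 when 1 library was left out. Against wdr12 GFP-negative cells it ran from 1.17 to 1.71 and bop1 from 0.87 to 1.32, and both lost their calls without either library of that sort, where the lone library left is assumed to vary like the others. bop1 against ebf3 GFP-positive cells ran from 0.35 to 0.70 and passed under no alternative (DESeq2, adjusted p = 0.0725). Between the controls wdr12 ran from -0.12 to 0.16, bop1 from -0.70 to -0.44 and pes from -0.18 to 0.10; pes was 0.13 with library totals and 0.02 with only the 2 groups compared. The log2 ratio of wdr12 to bop1 differed by 0.29 to 0.48, 0.88 to 1.07 and 0.52 to 0.64 in the 3 comparisons as listed, with 1 library left out.

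With 1 library left out, genes called numbered 1448 to 3375, 2845 to 3631 and 169 to 1329, and large-subunit factors called higher 4 to 19, 7 to 16 and 0 to 0, for the comparison within the Wdr12:GFP line, that with the ebf3 sort and that of the controls. Between the controls 801 genes were called in the fit of all groups, 1500 by DESeq2 and 1605 with only the 2 groups fitted. Scaling by library totals moved the median of all genes by -0.40, -0.25 and 0.15, and the share of higher among calls from 50.2% to 29.5%, from 54.0% to 38.9% and from 61.7% to 64.1%. It left 13 large-subunit factors called higher against wdr12 GFP-negative cells, from 19, and 9 against ebf3 GFP-positive cells, from 16. It also left bop1 at 0.75 against wdr12 GFP-negative cells, no longer called. Causes were not tested.

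With the replicate number as a block, wdr12 was 1.72 (edgeR, adjusted p = 0.00281) and bop1 1.25 (edgeR, adjusted p = 0.0155) against wdr12 GFP-negative cells, bop1 was 0.60 against ebf3 GFP-positive cells (edgeR, adjusted p = 0.186), and wdr12 turned to -0.17 between the controls (edgeR, adjusted p = 0.887). The block changed no call of wdr12 or bop1. Deviations of same-numbered libraries correlated between -0.223 and 0.221, and the numbers were not taken to pair the samples. The deviations of the wdr12 GFP-negative libraries from their group mean mirror each other, so this check cannot show that pairing is absent for that sort.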
